A study of Mus musculus with 12 samples.

Results

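The unfolded protein response and the chaperones of the endoplasmic reticulum (ER) were followed as a group of 32 mouse genes. They were chosen by name for these roles, with earlier results of these data known. A gene was read from the probe set whose platform annotation gives that single symbol, and from the brightest one where there were several. Of the 32 members, 30 had such a probe set, and all 30 exceeded their array's 40th percentile on 12 of 12 arrays and were tested among 12961 genes. Pdia4, a disulfide isomerase, and Ddit3, which encodes the transcription factor CHOP, lie only on probe sets shared with another gene, so no value is given for them. The tested members are 9 chaperones and co-chaperones, 5 lectin chaperones and disulfide isomerases, 7 genes of ER-associated degradation, 3 of the translocon, and 6 sensors and transcription factors.

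Signal was measured on 12 Affymetrix Mouse Gene 1.1 ST arrays of B lymphoma cells from l-MYC;B1-8f mice on a C57BL/6J x BALB/c background, in which a MYC transgene is combined with a B1-8 heavy chain gene that Cre can delete. Primary cultures were given TAT-Cre, a cell-permeable Cre, to remove the B cell receptor (BCR). Cells were sorted from mixed cultures after 4 days. The 4 groups were BCR-negative cells treated with CHIR99021 (an inhibitor of the kinase GSK3), BCR-independent cells, untreated BCR-negative cells and untreated BCR-positive cells. BCR-independent cells derive from BCR-negative tumours kept in culture for long, 1 clone per tumour (clone 8 of tumour 2567, clone 7 of 2646 and clone 1 of 2676), and were grown without the inhibitor beside BCR-positive cells. All groups carry the MYC transgene, and all were grown mixed with cells that differ in the receptor. Each of the 3 tumours gave 1 array to each group, so n = 3 per group throughout. The sources used here do not give the dose of CHIR99021, the age of the mice or whether the BCR-positive cells had met Cre. In tumours 2646 and 2676 the titles of both untreated BCR-negative and BCR-positive arrays, 4 in all, end in a "(2)" that the labels leave unexplained. All values are deposited log2 signals, similar but not identical in distribution between arrays (medians 3.32 to 3.44, 75th percentiles 5.23 to 5.46). A level is compared only within its own probe set.

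Proteins that enter the secretory pathway pass through the Sec61 channel into the ER, where chaperones such as BiP (Hspa5), lectin chaperones and disulfide isomerases fold them, and those that fail are returned to the cytosol for degradation. When unfolded protein builds up, the sensors IRE1 (Ern1), PERK (Eif2ak3) and ATF6 act through the transcription factors XBP1, ATF4 and cleaved ATF6 to raise chaperones and degradation factors, and PERK slows translation. B cells use the same machinery to make the receptor itself, and XBP1 is required in the plasma cells that secrete antibody.

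Among B lineage markers, Cd79a, Cd79b, Pax5, Cd22, Ebf1 and Blnk were above the 40th percentile on 12 of 12 arrays, with medians between 7.95 and 10.16, and Ms4a1 was dim (2.55 to 3.19). The plasma cell markers Prdm1 (2.79 to 3.21) and Tnfrsf17 (2.78 to 3.26) were near or below the array medians on all arrays, and Sdc1 was measured at 5.32 to 6.25. On a linear scale the 3 plasma cell markers summed to 66.5 to 75.8 in treated BCR-negative, 57.3 to 85.0 in BCR-independent, 63.4 to 90.0 in untreated BCR-negative and 54.1 to 92.9 in BCR-positive cells, so the groups overlapped. The 5 T cell markers, 1 of them above the 40th percentile on all arrays, summed to 44.3 to 47.4 in treated BCR-negative, 40.8 to 44.4 in BCR-independent, 40.1 to 44.0 in untreated BCR-negative and 41.4 to 45.7 in BCR-positive cells, and the part of this shift in the results was not tested. Sums of myeloid (64.5 to 75.3 in treated and 65.0 to 109 in untreated BCR-negative cells), stromal (53.7 to 66.6 and 53.5 to 62.0) and erythroid markers (8.12 to 8.65 and 6.72 to 8.51) overlapped in those groups. Ighv1-72, the segment used by B1-8, checked the sort: it lay between 4.93 and 6.26 in treated BCR-negative, 3.72 and 4.21 in BCR-independent, 5.85 and 6.97 in untreated BCR-negative, and 9.45 and 9.97 in BCR-positive cells. Near-identical variable segments may share that signal. In such sorted bulk samples, fewer cells of a type and less RNA per cell cannot be told apart.

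Promoter sequence was taken from RefSeq (assembly GRCm38.p6), 250 bases before to 50 after each annotated start, for the 27 members with an entry (28 windows of 300 bases). Manf, Hyou1, Derl1, Atf6 and Sec61a1 had no entry and were not searched. The ER stress response element, ERSE, is read here as CCAAT and CCACG with 9 bases between them, the arrangement bound by NF-Y together with ATF6 or XBP1. It was searched with no mismatch on both strands and was found in 8 of 27 members, Hspa5, Hsp90b1, Calr, Canx, Pdia6, Creld2, Dnajc3 and Syvn1, against 0.137% of 27025 genes with a promoter entry. The members were chosen by name as genes of this response, so this share and those of the motifs below are no test of an excess. The windows are printed to show the element in the 8 members that hold it. Capitals mark the element, with 20 bases on each side, and where it runs on the other strand the capitals begin with CGTGG and end with ATTGG:
Hspa5 (chr2:34772005-34772063, + strand): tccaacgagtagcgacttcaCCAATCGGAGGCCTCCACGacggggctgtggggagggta
Hsp90b1, upstream match (chr10:86705618-86705676, - strand): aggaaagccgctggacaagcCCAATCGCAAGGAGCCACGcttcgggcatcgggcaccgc
Hsp90b1, downstream match (chr10:86705513-86705571, - strand): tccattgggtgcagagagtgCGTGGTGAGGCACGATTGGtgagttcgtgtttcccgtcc
Calr (chr8:84847055-84847113, - strand): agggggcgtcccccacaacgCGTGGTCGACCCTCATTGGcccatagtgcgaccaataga
Canx (chr11:50325780-50325838, - strand): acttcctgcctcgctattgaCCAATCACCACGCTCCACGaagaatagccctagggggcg
Pdia6 (chr12:17266471-17266529, + strand): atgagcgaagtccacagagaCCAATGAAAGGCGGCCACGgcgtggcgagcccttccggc
Creld2 (chr15:88819500-88819558, + strand): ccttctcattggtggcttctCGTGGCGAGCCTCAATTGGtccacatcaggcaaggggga
Dnajc3 (chr14:118937807-118937865, + strand): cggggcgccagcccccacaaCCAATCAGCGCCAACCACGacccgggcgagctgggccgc
Syvn1 (chr19:6046512-6046570, + strand): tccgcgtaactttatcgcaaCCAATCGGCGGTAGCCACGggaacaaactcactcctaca

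The compact form ERSE-II, ATTGG and CCACG with 1 base between them, was found in Dnajb11 and Herpud1, 2 of 27 members, against 0.044% of genes. An ATF4 composite element, TGATGNAA, was found in Herpud1 and Trib3, 2 of 27, against 4.51% of genes, and both matches lie on the strand opposite to the gene. TGACGTGG (0.714% of genes) and TGACGTCA (2.03% of genes) were found in 0 members. The motifs are short and some share letters, but no matches overlapped in these windows. A match describes the letters only:
Dnajb11, ERSE-II (chr16:22857832-22857882, + strand): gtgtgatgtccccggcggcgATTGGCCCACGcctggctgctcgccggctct
Herpud1, ERSE-II (chr8:94386357-94386407, + strand): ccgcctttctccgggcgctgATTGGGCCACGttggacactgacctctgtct
Herpud1, ATF4 composite (chr8:94386297-94386344, + strand): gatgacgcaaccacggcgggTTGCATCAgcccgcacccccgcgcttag
Trib3, ATF4 composite (chr2:152344019-152344066, - strand): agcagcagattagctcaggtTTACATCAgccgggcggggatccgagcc

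**Figure D1:**
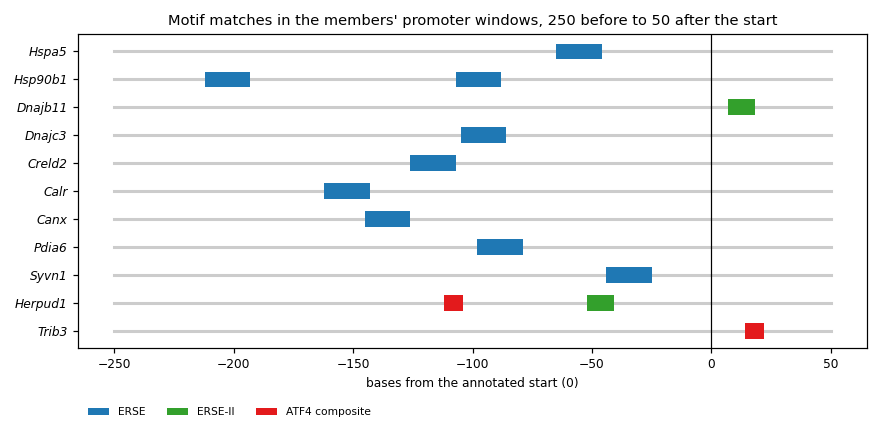
Matches in the promoter windows of the 11 members that have one, from 250 bases before to 50 after the annotated start (x axis, bases from the start). Coloured blocks are ERSE, ERSE-II and ATF4 composite matches; the grey line is the window, and 10 of the 11 members have an ERSE or ERSE-II.

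The comparison of treated with untreated BCR-negative cells addresses the effect of GSK3 inhibition where the receptor is lost, and most members were higher in the treated cells. Of the 30 members, 25 were higher in treated cells and 5 lower, with a median log2 difference of 0.29 against 0.026 over all 12961 genes. Among all genes 56.7% were higher. In each of the 3 tumours 17 members were higher and 4 lower, where 25.7% of all genes were higher and 15.8% lower in all 3. The fitted test (limma, Benjamini-Hochberg adjusted p under 0.05 over all genes) called 1 member, Sec61a1, against 1.91% of all genes. At an unadjusted p under 0.05, 15 members stood out, 13 higher and 2 lower, against 16.6% of genes. All treated arrays lay above all untreated ones for 12 members and below for 1, against 765 and 607 of 12961 genes. Within the tumours the median of the members was 0.22 in tumour 2567, 0.28 in 2646 and 0.22 in 2676. Only in tumour 2567 do treated and untreated BCR-negative arrays carry the same title mark, and there 22 of 30 were higher, against 7873 of 12961 genes. In a fit that includes the mark the median was 0.36, and 4 of the 30 members had the other sign. The mark sits on untreated BCR-negative and BCR-positive arrays of tumours 2646 and 2676 and on no others. In every fit with the mark, the step from those 2 groups to the other 2 therefore rests on tumour 2567 alone.

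**Figure D2:**
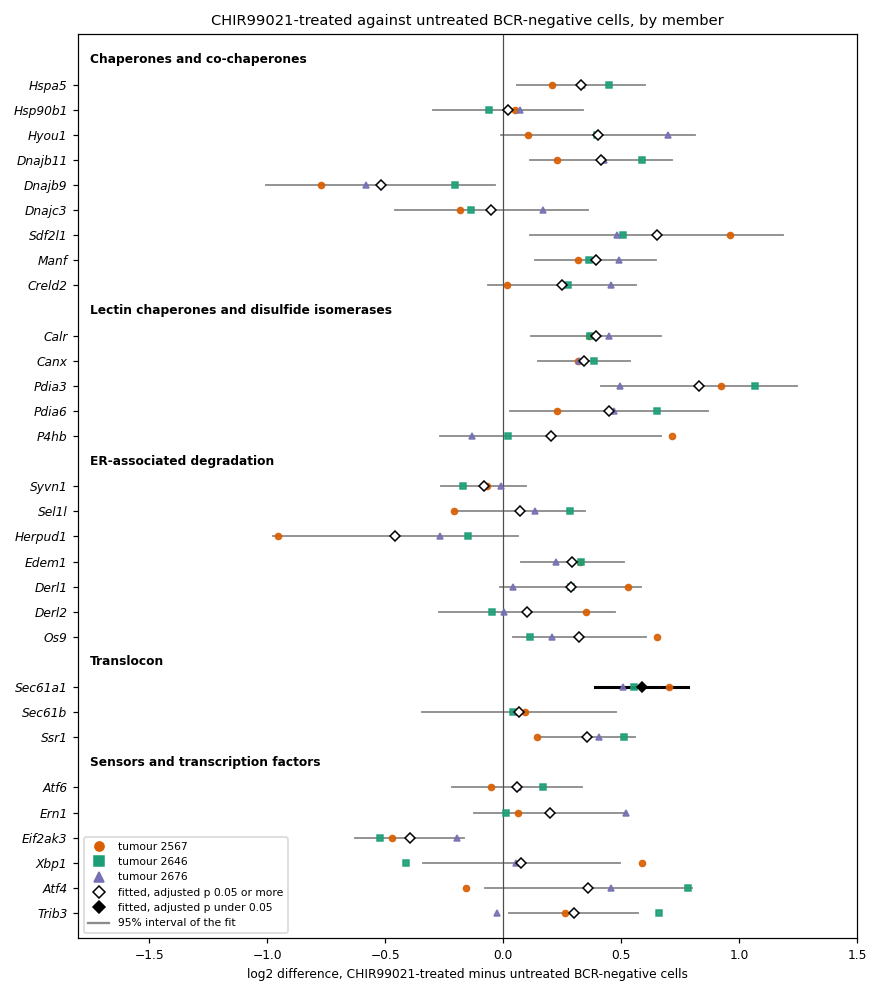
Log2 difference of each of the 30 members, CHIR99021-treated minus untreated BCR-negative cells (x axis), grouped by role. Coloured points are the 3 tumours, diamonds the fitted difference (filled where the adjusted p is under 0.05) and lines its 95% interval; only Sec61a1 is filled, and 25 diamonds lie right of 0.

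Sec61a1 encodes the pore-forming subunit of the Sec61 channel. It had 8.60, 8.58 and 8.24 in treated BCR-negative cells of tumours 2567, 2646 and 2676, against 7.90, 8.02 and 7.73 in untreated BCR-negative cells. Every treated array lay above every untreated one. Sec61a1 rose by 0.59 (SE 0.088, adjusted p = 0.0268), which was 0.70, 0.55 and 0.51 in the 3 tumours. The call was lost without any 1 tumour (differences 0.53, 0.60 and 0.63 and adjusted p = 0.107, 0.342 and 0.141 without 2567, 2646 and 2676), without the tumour block (adjusted p = 0.171) and in a fit that includes the title mark (0.68, adjusted p = 0.0691).

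The other 2 translocon members differed in size. Ssr1, a subunit of the translocon-associated TRAP complex, had 8.27, 8.35 and 8.39 in treated cells, against 8.12, 7.84 and 7.99 in untreated BCR-negative cells, with no overlap, a difference of 0.35 (SE 0.092, adjusted p = 0.0945). Sec61b, a small channel subunit, had 7.78, 7.32 and 7.81 in treated and 7.69, 7.28 and 7.74 in untreated BCR-negative cells, a difference of 0.066 (SE 0.18, adjusted p = 0.916). Its other 2 single-gene probe sets gave 0.13 and 0.14.

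Among the lectin chaperones and disulfide isomerases, all 5 were higher in treated cells, 4 of them in all 3 tumours, and none passed the test over all genes (4 of 5 at an unadjusted p under 0.05), with a median of 0.39. Pdia3, the isomerase that works with calreticulin and calnexin on glycoproteins, had the largest difference of all members. It had 9.42, 9.30 and 8.92 in treated cells, against 8.49, 8.23 and 8.43 in untreated BCR-negative cells. The groups did not overlap, and the difference was 0.83 (SE 0.18, 95% interval 0.41 to 1.25, adjusted p = 0.061), 1.78-fold. Calr, calreticulin, had 9.24, 9.31 and 9.29 in treated cells and 8.88, 8.95 and 8.85 in untreated BCR-negative cells, a difference of 0.39 (SE 0.12, adjusted p = 0.14). Canx, calnexin, had 10.28, 10.24 and 10.22 in treated cells and 9.96, 9.85 and 9.90 in untreated BCR-negative cells, 0.34 apart (SE 0.087, adjusted p = 0.0888). For both lectins every treated array exceeded every untreated one, and the 3 tumours gave like differences (0.37 to 0.45 for Calr, 0.32 to 0.39 for Canx). Pdia6, an isomerase that acts with BiP, was 0.45 higher (SE 0.19, adjusted p = 0.264), again without overlap. P4hb, protein disulfide isomerase itself, was 0.71 higher in tumour 2567, 0.02 higher in 2646 and -0.13 in 2676, with a fitted 0.20 (adjusted p = 0.729).

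Of the 9 chaperones and co-chaperones, 7 were higher and 2 lower in treated cells, with 6 higher and 1 lower in all 3 tumours and a median of 0.33. None passed over all genes, and 5 had an unadjusted p under 0.05, 4 of them higher. Hspa5, BiP, the main Hsp70 chaperone of the ER, had 9.32, 9.32 and 9.19 in treated cells, against 9.11, 8.87 and 8.86 in untreated BCR-negative cells. All treated arrays were above all untreated ones, and the difference was 0.33 (SE 0.12, 95% interval 0.061 to 0.60, adjusted p = 0.203). Hsp90b1, the ER form of Hsp90 (GRP94), had 9.76, 9.80 and 9.84 in treated and 9.71, 9.86 and 9.77 in untreated BCR-negative cells, a difference of 0.021 with an interval of -0.30 to 0.34. Both genes have ERSE matches, printed above, and their groups behaved unequally: only those of Hspa5 were apart.

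The cofactors of BiP differed in sign. Dnajb11 (ERdj3), a co-chaperone with the compact ERSE-II, had 6.88, 7.09 and 6.93 in treated and 6.65, 6.50 and 6.50 in untreated BCR-negative cells, 0.42 apart without overlap (SE 0.13, adjusted p = 0.153). Dnajb9 (ERdj4), which restrains IRE1, ran the other way, with 4.53, 5.33 and 5.04 in treated and 5.30, 5.53 and 5.62 in untreated BCR-negative cells. It was lower in each tumour (by 0.77, 0.20 and 0.58 on the log2 scale), with overlapping arrays and a difference of -0.52 (SE 0.22, adjusted p = 0.267). Dnajc3 (p58IPK), an ERSE gene that inhibits PERK, differed by -0.050 (adjusted p = 0.937).

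Sdf2l1, a partner of BiP and ERdj3, was 0.96, 0.51 and 0.48 higher in the 3 tumours, a fitted 0.65 (SE 0.24, adjusted p = 0.206). Its treated and untreated arrays overlapped, and its level differed by tumour: on average over the 4 groups it stood at 6.82 in tumour 2567, 6.37 in 2646 and 5.46 in 2676. Manf, a secreted ER stress protein, had 5.30, 5.32 and 5.46 in treated and 4.98, 4.95 and 4.97 in untreated BCR-negative cells, 0.39 apart without overlap (SE 0.11, adjusted p = 0.123). Hyou1 (GRP170), an exchange factor for BiP, was 0.40 higher (adjusted p = 0.315) and Creld2, a stress-induced ER protein, 0.25 higher (adjusted p = 0.427). Both were higher in each tumour, Hyou1 by 0.11 to 0.70 and Creld2 by 0.02 to 0.46.

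ER-associated degradation was divided: 5 of its 7 members were higher and 2 lower in treated cells, 3 and 2 of them in all 3 tumours, and 0 passed over all genes (2 at an unadjusted p under 0.05). Edem1, a mannosidase-like protein that marks misfolded glycoproteins for disposal, had 7.46, 7.70 and 7.41 in treated and 7.14, 7.36 and 7.18 in untreated BCR-negative cells, 0.29 apart without overlap (SE 0.097, adjusted p = 0.161). Os9, a lectin of the degradation complex, was 0.32 higher (SE 0.13, adjusted p = 0.234), by 0.65 in tumour 2567 and 0.11 and 0.21 in 2646 and 2676, while its second, dim probe set differed by -0.058. Derl1 was 0.29 higher (adjusted p = 0.322) and its relative Derl2 0.10 higher (adjusted p = 0.849); both are derlins, membrane proteins of the exit channel.

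Herpud1, which recruits the ubiquitin ligase complex, had the opposite sign. It had 8.50, 9.20 and 9.43 in treated cells, against 9.45, 9.35 and 9.69 in untreated BCR-negative cells, with overlap. The difference of -0.46 (SE 0.23, adjusted p = 0.37) was -0.95 in tumour 2567, -0.15 in 2646 and -0.27 in 2676. In the fit with the title mark, which leans on tumour 2567, the difference was -1.09 (adjusted p = 0.0465). Syvn1 (HRD1), the ubiquitin ligase, differed by -0.082 (SE 0.080, adjusted p = 0.704) and its partner Sel1l by 0.070 (SE 0.12, adjusted p = 0.862).

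Of the 6 sensors and transcription factors 5 were higher and 1 lower in treated cells, with a median of 0.14, but only 1 was higher in all 3 tumours, and 0 passed over all genes (2 at an unadjusted p under 0.05, 1 in each direction). PERK (Eif2ak3) was lower in treated cells, with 6.18, 6.44 and 6.29 against 6.65, 6.96 and 6.48 in untreated BCR-negative cells. Its groups did not overlap, and the difference was -0.40 (SE 0.10, 95% interval -0.63 to -0.16, adjusted p = 0.0946). Atf6 differed by 0.060 (SE 0.12, adjusted p = 0.884) and Ern1, IRE1, by 0.20 (SE 0.14, adjusted p = 0.568). Within the tumours Ern1 differed by 0.52 in 2676 and by 0.06 and 0.01 in 2567 and 2646.

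Xbp1 mRNA had 6.01, 6.18 and 6.38 in treated and 5.43, 6.59 and 6.32 in untreated BCR-negative cells. Its sign differed between tumours (0.59, -0.41 and 0.05), and the fitted 0.078 had an interval of -0.34 to 0.50. The array does not separate its spliced from its unspliced form here. Atf4 had 7.30, 7.74 and 7.46 in treated and 7.45, 6.96 and 7.00 in untreated BCR-negative cells, lower in tumour 2567 (-0.16) and higher in 2646 and 2676 (0.78 and 0.46), a fitted 0.36 (SE 0.20, adjusted p = 0.41). Trib3, a pseudokinase gene that ATF4 and CHOP switch on, was 0.30 higher (SE 0.12, adjusted p = 0.253), but at 3.55 to 3.80 in treated and 3.13 to 3.58 in untreated BCR-negative cells it lay close to the array medians.

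**Figure D3:**
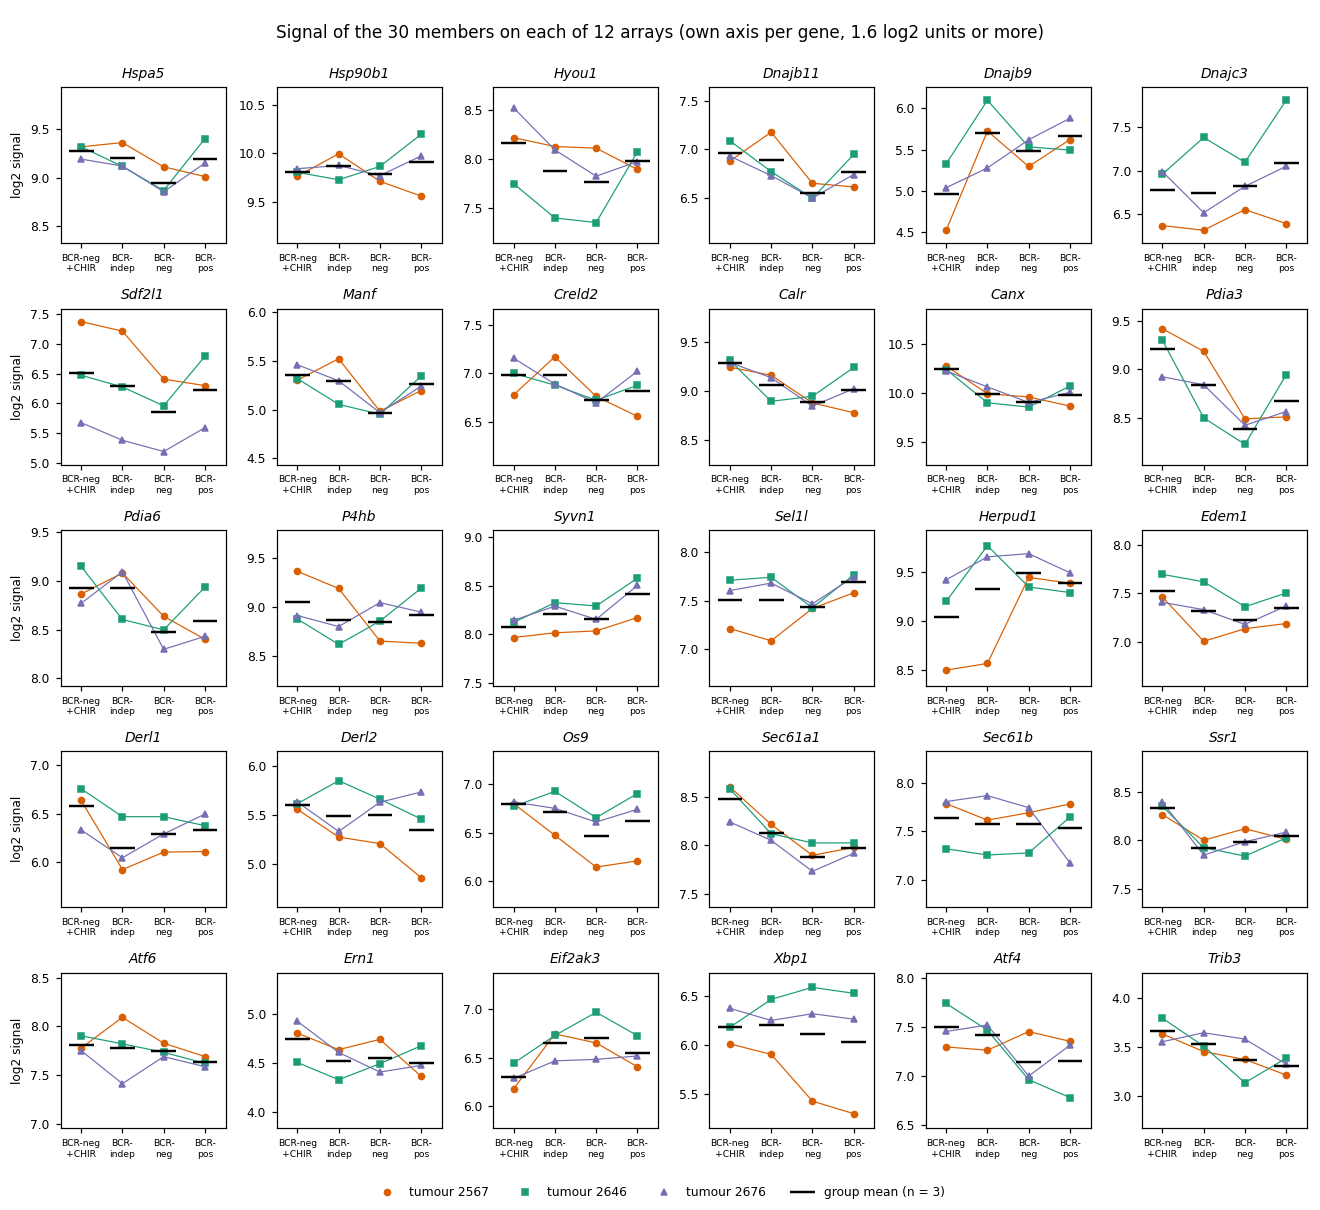
Log2 signal (y axis, own range per gene) of the 30 members on the 12 arrays; the x axis runs from CHIR99021-treated BCR-negative through BCR-independent and untreated BCR-negative to BCR-positive cells. Lines join the arrays of a tumour and bars are group means (n = 3). Sec61a1, Canx and Pdia3 peak in treated cells, while Xbp1, Sdf2l1 and Dnajc3 vary more between tumours than between groups.

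Loss of the receptor was addressed by comparing BCR-negative with BCR-positive untreated cells, arrays whose marks are alike within each tumour. There 8 members were higher and 22 lower in BCR-negative cells, with a median of -0.10 against -0.00093 over all genes. Among all genes 49.7% were higher. The sign held in all 3 tumours for 3 members higher and 6 lower, against 12.4% and 12% of all genes. Limma called 0 members, against 0.00772% of all genes (1 gene), and 2 members had an unadjusted p under 0.05, both lower, against 3.19% of genes.

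The tumours did not agree in this comparison. In tumour 2567, 20 of 30 members were higher in BCR-negative cells (median 0.099), whereas 21 were lower in tumour 2646 (median -0.25) and 24 in tumour 2676 (median -0.16). Over all 12961 genes, 7206 were higher in tumour 2567, and 7250 and 6445 were lower in 2646 and 2676. All 9 chaperones had a fitted value below 0, with a median of -0.22, yet 7 of the 9 were higher in tumour 2567. BiP shows the split: Hspa5 had 9.11, 8.87 and 8.86 in BCR-negative cells, against 9.01, 9.40 and 9.15 in BCR-positive cells of tumours 2567, 2646 and 2676. Its difference was 0.10, -0.53 and -0.30, a fitted -0.24 (SE 0.12, adjusted p = 0.999), and the groups overlapped. Without tumour 2646 the median of the 30 members was -0.037, and without 2567 it was -0.16.

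The 6 members lower in all 3 tumours were Manf, Pdia3, Syvn1, Sel1l, Edem1 and Os9, of which the last 4 belong to ER-associated degradation. Syvn1 had 8.04, 8.29 and 8.15 in BCR-negative cells, against 8.17, 8.58 and 8.50 in BCR-positive cells, with overlap, a difference of -0.26 (SE 0.080, 95% interval -0.44 to -0.077). Its partner Sel1l had 7.42, 7.43 and 7.47 in BCR-negative and 7.58, 7.76 and 7.74 in BCR-positive cells, -0.26 apart (SE 0.12). Manf had 4.98, 4.95 and 4.97 in BCR-negative and 5.20, 5.34 and 5.24 in BCR-positive cells, a difference of -0.29 (SE 0.11). For Sel1l, Manf and Pdia3 every BCR-negative array lay below every BCR-positive one, and for the 6 members the adjusted p was 0.999. These were the 3 members so separated downwards, with 0 upwards, against 261 and 324 of 12961 genes. The 3 members higher in all 3 tumours were Herpud1 (0.10), Atf6 (0.12) and Xbp1 (0.082), with differences inside their standard errors for all 3.

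**Figure D4:**
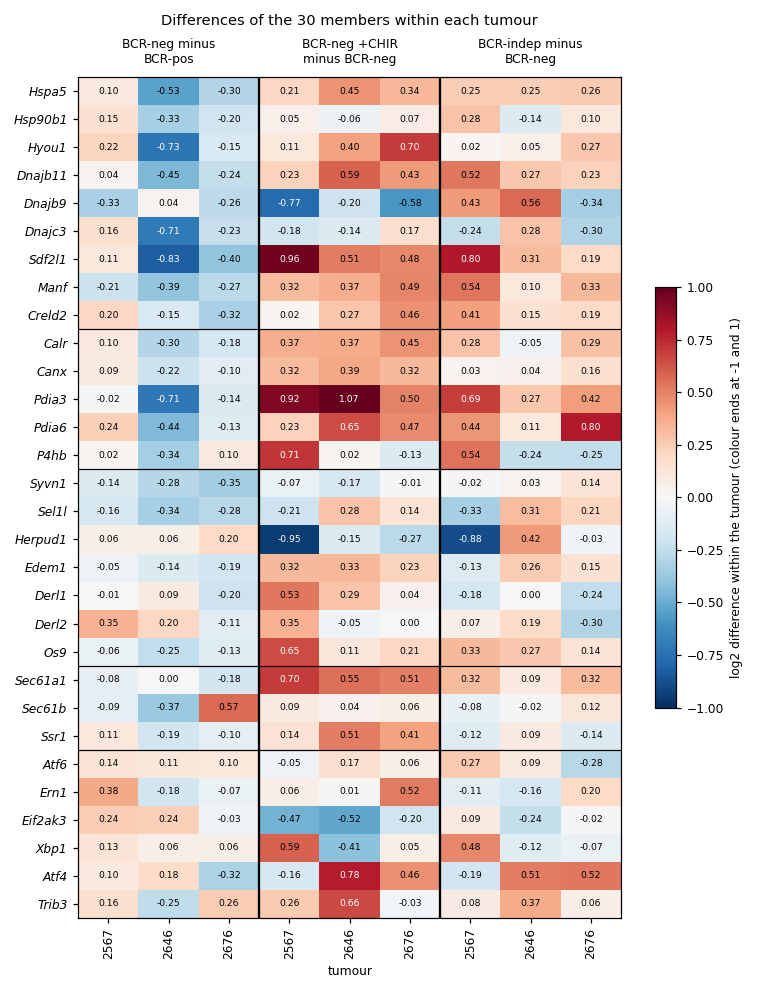
Log2 difference of each member (rows) within each tumour (columns), for BCR-negative minus BCR-positive, treated minus untreated BCR-negative, and BCR-independent minus BCR-negative cells. Red is above 0 and blue below; most chaperones are red in tumour 2567 and blue in 2646 and 2676 in the first block, and red in all 3 tumours in the second.

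BCR-independent clones were set against BCR-negative cells to ask what distinguishes cells that persist without the receptor. Here 23 members were higher and 7 lower, with a median of 0.094 against 0.017 over all genes, of which 55.3% were higher. In all 3 tumours 12 members were higher and 0 lower, where 16.0% and 10.3% of all genes were. Limma called 0 members, against 0.00772% of all genes, and 5 members had an unadjusted p under 0.05, all higher, against 5.99% of genes. In tumours 2646 and 2676 the BCR-negative arrays carry the title mark and the clones do not, and in the fit with the mark the median was 0.15 and 6 members had the other sign. This comparison shares its untreated BCR-negative arrays with the 2 before it, so the values are given side by side and no likeness between them is read.

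Of the chaperones 8 of 9 were higher in BCR-independent cells, 6 of them in all 3 tumours, and a median of 0.25. Hspa5 had 9.36, 9.12 and 9.12 in BCR-independent cells, against 9.11, 8.87 and 8.86 in BCR-negative cells, without overlap and with nearly the same difference in each tumour (0.25, 0.25 and 0.26; SE 0.12, adjusted p = 0.814). Dnajb11 had 7.18, 6.77 and 6.73 in BCR-independent and 6.65, 6.50 and 6.50 in BCR-negative cells, 0.34 apart (SE 0.13, adjusted p = 0.814). Manf was 0.32 higher (SE 0.11, adjusted p = 0.799) and Creld2 0.25 higher (SE 0.14, adjusted p = 0.827). In Dnajb11, Manf and Creld2, too, all BCR-independent arrays exceeded all BCR-negative ones. Among the 30 members 6 were separated upwards in this way and 0 downwards, against 387 and 201 of 12961 genes.

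Pdia3 had 9.19, 8.50 and 8.84 in BCR-independent cells, against 8.49, 8.23 and 8.43 in BCR-negative cells, 0.46 apart without overlap (SE 0.18, adjusted p = 0.814). Pdia6 was 0.45 higher (SE 0.19, adjusted p = 0.814), by 0.80 in tumour 2676 and 0.11 in 2646, with 9.08 against 8.64 in 2567. Sec61a1 was 0.24 higher (SE 0.088, adjusted p = 0.805). Sec61a1 had 8.21, 8.12 and 8.05 in BCR-independent cells, all above the untreated BCR-negative arrays, whereas Ssr1 differed by -0.056 and Sec61b by 0.0088. PERK differed by -0.053 (SE 0.10), and Dnajb9 by 0.22 (SE 0.22), with 0.43, 0.56 and -0.34 in the 3 tumours. Herpud1 in tumour 2567 stood apart: the clone had 8.57 there against 9.45 in BCR-negative cells, whereas tumours 2646 and 2676 differed by 0.42 and -0.03.

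CHIR99021-treated BCR-negative cells were also compared with untreated BCR-positive cells, which leaves the treatment and the receptor both different. Of the members, 23 were higher and 7 lower in treated cells, with a median of 0.18 against 0.029 over all genes, of which 57.1% were higher. In all 3 tumours 11 members were higher and 6 lower, against 21.2% and 13.3% of genes. The 1 member called was Sec61a1 again (0.50, SE 0.088, adjusted p = 0.0429), against 0.802% of genes, and 8 members had an unadjusted p under 0.05, against 15.6%. Sec61a1 had 7.98, 8.02 and 7.92 in BCR-positive cells, below all treated arrays, and the call was lost without 2567, 2646 or 2676 (adjusted p = 0.149 to 0.354), without the tumour block (adjusted p = 0.321) and in the fit with the title mark (adjusted p = 0.108). In tumour 2646 the members' median was -0.041 and 16 of 30 were lower in treated cells, against medians of 0.29 in 2567 and 0.12 in 2676; without tumour 2567 the fitted median was 0.11.

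Canx and Ssr1 were also above all BCR-positive arrays in treated cells, by 0.27 (SE 0.087, adjusted p = 0.18) and 0.29 (SE 0.092, adjusted p = 0.162). So were Atf6 (7.75 to 7.90 against 7.59 to 7.69) and Trib3 (3.55 to 3.80 against 3.21 to 3.39). Calr was 0.27 higher (SE 0.12, adjusted p = 0.328) and separated only barely. Its lowest treated array was at 9.245 and its highest BCR-positive array at 9.242. Pdia3 had a mean of 9.21 in treated and 8.68 in BCR-positive cells, with overlap. Lower in treated cells were Dnajb9 (-0.70, SE 0.22, adjusted p = 0.159) and Syvn1 (-0.34, SE 0.080, adjusted p = 0.0858), both with every treated array below every BCR-positive one. Among the 30 members 6 were separated upwards and 2 downwards, against 906 and 584 of 12961 genes. PERK differed by -0.25 (SE 0.10, adjusted p = 0.29). Hspa5 differed by 0.088 (SE 0.12) and Hsp90b1 by -0.11 (SE 0.14), with intervals that span 0.

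**Figure D5:**
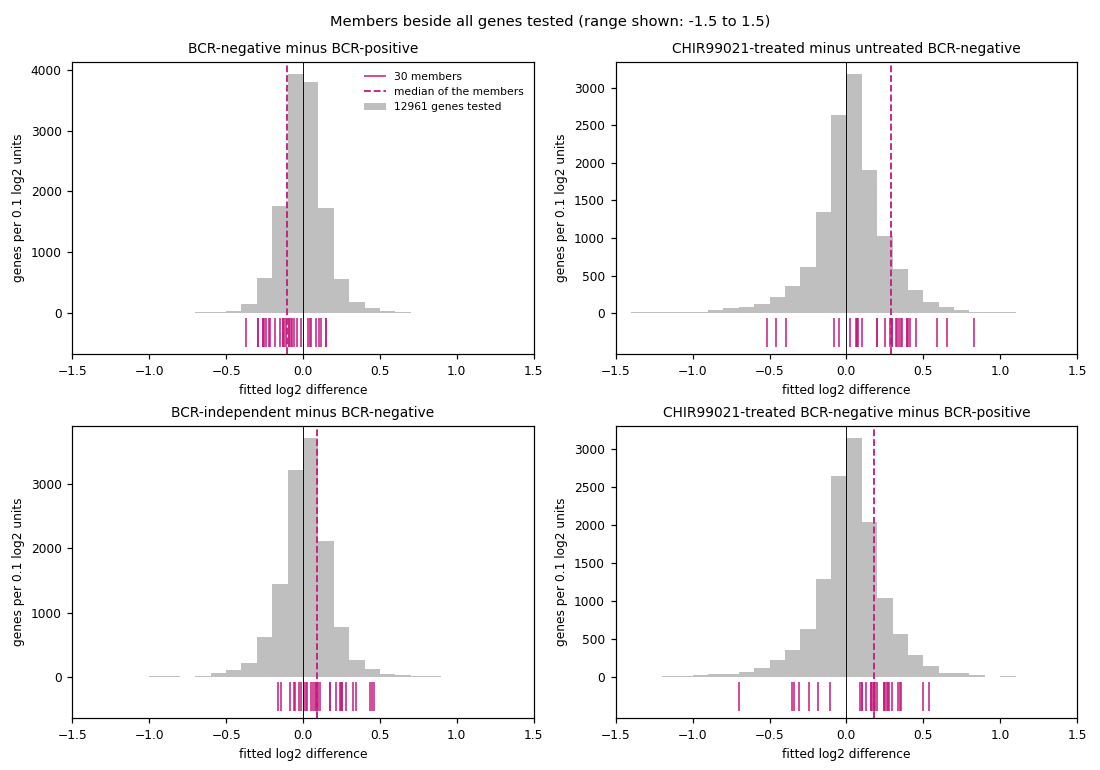
Fitted log2 differences (x axis) of all 12961 genes (grey, number of genes per 0.1 on the y axis) and of the 30 members (pink ticks below 0 on the y axis), in 4 comparisons named in the panel titles. The dashed line is the members' median: -0.10 for BCR-negative minus BCR-positive, 0.29 for treated minus untreated BCR-negative, 0.094 for BCR-independent minus BCR-negative, and 0.18 for treated BCR-negative minus BCR-positive cells.

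Between BCR-independent and BCR-positive cells, 20 members were higher and 10 lower, with a median of 0.040 that was -0.062 without tumour 2567 and 0.16 without 2646. Among all genes 55.7% were higher, with a median of 0.022. No member was called (0 by limma, against 0.0849% of genes), and 1, Syvn1 (-0.21, SE 0.080, adjusted p = 0.461), had an unadjusted p under 0.05, against 9.61%. Treated BCR-negative cells and BCR-independent cells, whose arrays all lack the title mark, differed by a member median of 0.078 (0.12 without tumour 2567), with 23 higher and 7 lower in treated cells. In this comparison 52.8% of all genes were higher, with a median of 0.010. Limma called 0 members there, against 0.162% of genes, and 6 had an unadjusted p under 0.05, against 12.3%. Ssr1 was 0.41 higher in treated than in BCR-independent cells (SE 0.092, adjusted p = 0.147), Derl1 0.43 (SE 0.13, adjusted p = 0.244), Sec61a1 0.34 (SE 0.088, adjusted p = 0.17) and Canx 0.26 (SE 0.087, adjusted p = 0.277). Dnajb9 differed by -0.74 (SE 0.22, adjusted p = 0.221) and PERK by -0.34 (SE 0.10, adjusted p = 0.233). Ssr1, Sec61a1, Canx and PERK did not overlap between the groups, whereas Derl1 and Dnajb9 did. Calr did not overlap either, so 4 members were separated upwards and 1 downwards, against 553 and 508 of 12961 genes.

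Members differed in how much of their spread lay between groups and how much between tumours. Tumour held the larger share of the sum of squares over the 12 arrays in 12 members and group in 18. With 4 groups and 3 tumours, group has more degrees of freedom, which favours group in this raw count. The tumour share was 74.5% for Xbp1, 73.3% for Sdf2l1 and 72.4% for Dnajc3, against 3.16%, 12.6% and 9.78% between groups. Xbp1 lay at 5.30 to 6.01 in tumour 2567 and at 6.18 to 6.59 in the other 2 tumours, without overlap. Ssr1, Canx and Sec61a1 were the reverse, with 82.8%, 82.7% and 80.7% between groups and 2.36%, 0.979% and 13.6% between tumours. P4hb and Hsp90b1 followed neither, with 86.6% and 74.6% left over.

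Members with and without an ERSE were set side by side, as a description. The 8 with an ERSE were all lower in BCR-negative than in BCR-positive cells, with a median of -0.13 and values from -0.26 to -0.076, but 7 of the 8 were higher in BCR-negative cells of tumour 2567 and only Syvn1 was lower in all 3 tumours. With the ERSE-II members Dnajb11 and Herpud1 added to the 8, 9 of 10 were lower and Herpud1 was higher (0.10). Of the 15 tested members whose window holds neither form, 6 were higher and 9 lower, with a median of -0.059. In treated against untreated BCR-negative cells 6 of the 8 were higher, 5 of them in all 3 tumours, with a median of 0.29, and of the 15 without, 13 were higher, 7 of them in all 3 tumours, with a median of 0.20. In BCR-independent against BCR-negative cells the medians were 0.13 and 0.092. Syvn1 and Dnajc3, whose windows stand among those printed above, were the 2 ERSE genes below 0 in treated cells, at -0.082 and -0.050. Among the ERSE-II members, Herpud1 was lower in treated cells (-0.46) and Dnajb11 was higher.

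Other genes of the same pathways were taken from lists, also chosen with earlier results of these data known. In treated against untreated BCR-negative cells, 5 of 19 tested genes of the translocon, signal peptidase and oligosaccharyltransferase were called higher and 0 lower, with a median of 0.27, where 1.91% of all genes were called. They were Rpn1 (0.57, SE 0.083, adjusted p = 0.0249), Stt3a (0.38, SE 0.075, adjusted p = 0.0414) and Dad1 (0.60, SE 0.12, adjusted p = 0.0455), subunits of the enzyme that attaches N-glycans, Ssr2 (0.53, SE 0.11, adjusted p = 0.0476), of the same TRAP complex as Ssr1, and Ddost (0.49, SE 0.10, adjusted p = 0.0499). Ssr2 ranked behind the first 3 here and is named for its call against BCR-positive cells, and Ddost, also of the glycan-attaching enzyme, was named after its values were seen. Of 15 tested targets of the PERK and ATF4 arm, 1 was called, Slc3a2, the heavy chain of amino acid transporters (0.74, SE 0.11, adjusted p = 0.0268), and 12 were higher with a fitted median of 0.43. The median of those 15 was 0.033 in tumour 2567, 0.59 in 2646 and 0.22 in 2676, with 7 higher and 3 lower in all 3 tumours. Of 5 tested genes on the plasma cell list, 1 was called, the coactivator Pou2af1, lower in treated cells (-0.44, SE 0.088, adjusted p = 0.0473). Its means were 9.50 in treated and 9.94 in untreated BCR-negative cells, whereas the plasma cell markers Prdm1 and Tnfrsf17 lay near or below the array medians. Lists of other folding and redox genes (18 tested, median 0.095), other degradation genes (12 tested, median 0.032) and other regulators of the response (8 tested, median 0.072) had 0 calls, with 3, 3 and 0 genes at an unadjusted p under 0.05, where 16.6% of all genes were. None of these 7 calls held without tumour 2567, 2646 or 2676, where adjusted p ranged between 0.0819 and 0.442, nor did any without the tumour block, with only the 2 groups or in the fit with the title mark. Of 13 settings Ddost was called in 2, Stt3a in 4, Ssr2 in 5, Pou2af1 in 6, and Rpn1, Dad1 and Slc3a2 in 7 each.

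Against BCR-positive cells, treated cells had called increases of Ssr2 (0.69, adjusted p = 0.0352), Rpn1 (0.46, adjusted p = 0.0466) and Slc3a2 (0.64, adjusted p = 0.0448) and a called decrease of Pou2af1 (-0.48, adjusted p = 0.0483), none of which held without any 1 tumour (adjusted p = 0.0984 to 0.374), without the tumour block, with only the 2 groups or in the fit with the title mark. The lists had 0 calls in the other 4 comparisons. The median of the translocon list there was 0.068 for BCR-negative against BCR-positive cells, 0.090 for BCR-independent against BCR-negative cells, 0.13 for BCR-independent against BCR-positive cells and 0.17 for treated BCR-negative against BCR-independent cells.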

How the data were processed

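The members and the lists were chosen with earlier results of these data known. The authors deposited log2 signals per probe set, for which the submitters' processing notes name RMA and Affymetrix Power Tools; the sources used here give neither versions nor detection calls, so levels near the array medians have no measured background beside them. The log2 values were used as deposited. Of 35556 probe sets, 21218 had 1 gene symbol, 1881 several and 12457 none in the platform annotation, and 21185 symbols were updated by gene ID through RefSeq (GRCm38.p6). A probe set was kept if it exceeded the 40th percentile of the array on 3 or more arrays, and each gene was read from its brightest probe set. In R 4.3.3, limma 3.58.1 (lmFit and eBayes) fitted group and tumour over all 12 arrays, with Benjamini-Hochberg adjustment over 12961 genes and 6 comparisons tested separately. The tumour number in the titles pairs the arrays, each tumour giving 1 array per group. Deviations from the group means correlated at 0.284 to 0.792 within a tumour and at -0.716 to 0.165 across tumours. Subtracting a mean of 3 arrays by itself pushes the values across tumours downwards. The p-values measure only the spread between these samples, which may be technical, and precision is limited by the number of arrays. Named are all members, and from the other lists the called genes, at most 3 per list and comparison by p, with Ssr2 given in both comparisons that called it and Ddost added after its values were seen. The alternatives left out the tumour block, the filter or each tumour in turn, raised the filter to the 60th percentile, used a trended prior or weights per array, renormalized by quantiles or cyclic loess, fitted 2 groups alone, averaged probe sets, added the title mark, or required 1.5-fold. Promoters were searched in Python 3.11.15.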

Additional observations from a re-analysis of the deposited data

How the results depend on the processing

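Values are given for the main analysis first. For treated against untreated BCR-negative cells, 248 genes were called, against 12 without the replicate block (the paired analysis by tumour is the main one), 1635 with array weights, 109 with only the 2 groups, 32 with the title mark, 163 at 1.5-fold and 1 to 17 with a tumour left out. Of the members, 1 was called, against 0 without the block, with only the 2 groups or with any tumour left out, 2 with the intensity trend (Pdia3 joins Sec61a1, adjusted p = 0.0498) and 12 with array weights, and the 1 called with the title mark was Herpud1. Their median of 0.29 was 0.24 after cyclic loess and 0.36 with the mark, and 0.27 to 0.32 with a tumour left out. For treated BCR-negative against BCR-positive cells, 104 genes were called, against 7 without the block, 168 with array weights, 183 after cyclic loess, 0 with only the 2 groups, 8 with the mark and 4 to 19 with a tumour left out; of the members 1, against 2 after cyclic loess (Syvn1 joins, adjusted p = 0.0493) and 0 without the block, with only the 2 groups, with the mark, at 1.5-fold or with any tumour left out. For BCR-negative against BCR-positive cells, 1 gene was called, against 0 without the block, 2 with only the 2 groups, 2 with the mark and 0 with any tumour left out. For BCR-independent against BCR-negative cells, 1 gene was called, against 0 without the block, with only the 2 groups or with the mark, and 0 to 3 with a tumour left out; the members' median of 0.094 was 0.13 with array weights, 0.15 with the mark and 0.12 to 0.14 with a tumour left out. For BCR-independent against BCR-positive cells, 11 genes were called, against 4 without the block, 3 with array weights, 1 with only the 2 groups and 1 to 4 with a tumour left out; the members' median of 0.040 was -0.062 to 0.16 with a tumour left out. For treated BCR-negative against BCR-independent cells, 21 genes were called, against 5 without the block, 39 with array weights, 37 after cyclic loess, 33 after quantile normalization, 1 with only the 2 groups, 33 with the mark and 0 to 12 with a tumour left out. The causes were not tested. The number of members higher or lower in all 3 tumours was also recomputed under 5 settings chosen after seeing the data and moved once: 1 member, against 0, was lower in all 3 tumours in BCR-independent than in BCR-negative cells after cyclic loess and after quantile normalization. The settings for genes of the other lists were also chosen after seeing the data. Over 389 values per comparison, members' signs changed in 11 for treated against untreated BCR-negative cells, 12 for BCR-negative against BCR-positive cells, 26 for BCR-independent against BCR-negative cells, 10 for treated BCR-negative against BCR-positive cells, 32 for BCR-independent against BCR-positive cells and 21 for treated BCR-negative against BCR-independent cells. With 3 arrays a group and no detection calls, members near the array medians, such as Trib3, have little measured range.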
